A study of Mus musculus with 6 samples.

Results

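The genes described here make cholesterol and fatty acids, or set how much of either a cell makes. They are 32 genes chosen by name: 7 enzymes of the mevalonate and isoprenoid steps, 11 enzymes from squalene to cholesterol, 7 regulators and sterol sensors, 6 enzymes of fatty acid synthesis, and Cyp46a1, which turns cholesterol over in neurons. All 32 were found among the 56941 genes of the count table, and all 32 were among the 19354 genes with enough counts to be tested. Poly(A) RNA of the ventral hippocampus was sequenced from 3 mice labelled NEGR1_overexpression and 3 labelled NEGR1_control. The study concerned the function of NEGR1, a neuronal adhesion molecule, in working memory and in anxiety- and depression-like behaviour. Strain, age, the way overexpression was brought about and what the control mice received were not given in the sources used here. Levels are CPM, read counts scaled to a common library size with TMM factors, and every fold change is overexpression over control on the log2 scale, so that 0 is no difference.

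The brain makes its own cholesterol, because lipoproteins of the blood do not cross the blood-brain barrier. Acetyl-CoA is built into mevalonate and then into isoprenoids, which are joined to squalene, closed to the ring of lanosterol and trimmed to cholesterol. The transcription factors SREBP1 and SREBP2, encoded by Srebf1 and Srebf2, switch these genes on together when membranes are low in sterol. SCAP carries SREBP to the Golgi for activation and INSIG proteins hold it back in the endoplasmic reticulum. Oligodendrocytes, which wrap axons in lipid-rich myelin, and astrocytes are the main makers of sterol in the brain, and neurons remove surplus cholesterol by hydroxylating it through CYP46A1.

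The 6 libraries held 30726110 to 38108394 counts, and a member of the set had 362 to 61288 counts in a library. The gene named in the labels, Negr1, was at 185, 199 and 195 CPM in the overexpression libraries and at 181, 168 and 180 CPM in the control libraries. Its log2 fold change was 0.13 ± 0.054 (SE), with an edgeR adjusted p of 0.488. By exact permutation of the libraries, two-sided, p was 0.1, the smallest that 3 against 3 allow. All 3 overexpression libraries were above the controls for Negr1, by a fold of 1.09 between the means. Of all tested genes, 7.07% were likewise higher in overexpression with no overlap of the groups. After correction for GC content the log2 fold change of Negr1 was 0.086 ± 0.054 (SE), with an edgeR adjusted p of 0.739.

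The log2 fold changes of the sterol and fatty acid genes were small and mostly below 0, and none passed the test. Of the 32 genes, 28 (87.5%) were below 0, where 49.6% of all tested genes were, and 4 were above 0, where 50.4% of all tested genes were. The 4 above 0 were Hmgcs1, Tm7sf2, Msmo1 and Insig2. The median was -0.078 against 0.0015 over all tested genes. No gene passed an adjusted p of 0.05: edgeR's quasi-likelihood test, DESeq2 and limma-voom each called 0 of the 32. Over all tested genes edgeR called 0.0465%, of which 0.0258% were higher and 0.0207% lower in overexpression. At an unadjusted p under 0.05 edgeR had 4 of the 32 (12.5%) beside 9.24% of all tested genes. These 4 were Dhcr7, Srebf1, Insig1 and Acaca, all lower, and the background was 4.6% for lower and 4.64% for higher genes. The groups did not overlap for 3 of the 32 (9.38%), namely Mvd, Cyp51 and Dhcr7, beside 15.1% of all tested genes. All 3 were lower, where the background was 8.07% for lower and 7.07% for higher genes, so this share was near the background.

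**Figure D1:**
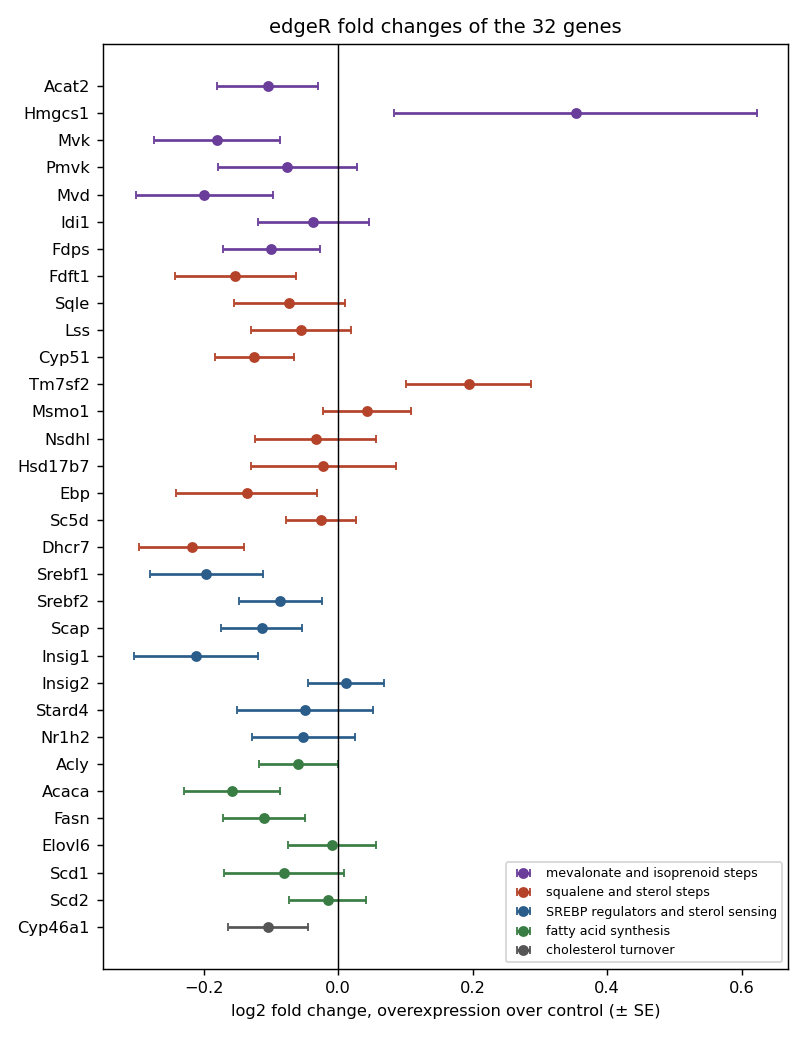
Log2 fold change of each of the 32 genes, overexpression over control, from edgeR's fit to 3 libraries per group, with bars of 1 standard error and colours for the role of the gene. A total of 28 points lie left of 0, none past an adjusted p of 0.05, and Hmgcs1 has the widest bar.

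The size of the shift rested on single libraries. Without overexpression replicate 3 the median of the 32 genes was -0.029, with 21 below 0, and 1 gene had an unadjusted p under 0.05 (3.12%, beside 6.77% of all genes tested in that fit), Tm7sf2, which was higher. Without overexpression replicate 1 the median was -0.14, with 28 below 0, and 11 genes had an unadjusted p under 0.05 (34.4%), all lower. In that fit 12% of all tested genes had one, 6.1% in the lower direction, and the calls over the whole table went from 9 to 63. The smallest edgeR adjusted p of any of the 32 genes was 0.429 in all 6 libraries and 0.154 without overexpression replicate 1.

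Among the enzymes of the mevalonate and isoprenoid steps, 6 of 7 were below 0 and the median was -0.099, with 0 past the threshold. Mvd, which decarboxylates mevalonate diphosphate to isopentenyl diphosphate, was at 12.8, 12.1 and 11.1 CPM in the overexpression libraries and at 12.9, 15.3 and 12.98 CPM in the control libraries. The groups of Mvd did not overlap, but the highest overexpression library and the lowest control library were next to each other. The log2 fold change was -0.20 ± 0.10 (SE), with an edgeR adjusted p of 0.585. It was -0.11 without control replicate 2 and -0.25 without overexpression replicate 1. Mvk, the kinase that starts the use of mevalonate, was at 14.53, 13.2 and 12.01 CPM against 14.45, 15.5 and 15.05 CPM. Overexpression replicate 1 lay just above control replicate 1 for Mvk, so its groups touched (log2 fold change -0.18 ± 0.094, adjusted p = 0.592). The log2 fold change of Mvk was -0.11 without overexpression replicate 3 and -0.25 without replicate 1. Acat2, which joins acetyl-CoA units, Pmvk, the next kinase, Idi1, the isomerase, and Fdps, which makes farnesyl diphosphate, had log2 fold changes between -0.10 and -0.037, with edgeR adjusted p-values of 0.706 to 0.929. Idi1 was the member of these 4 nearest to 0.

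Hmgcs1, the cytosolic synthase that makes HMG-CoA for the pathway, stood apart from the other 31 genes. It was at 229 and 211 CPM in overexpression replicates 1 and 2, at 383 CPM in overexpression replicate 3, and at 203, 227 and 215 CPM in the control libraries. Only replicate 3 was high, and the other 5 libraries were mixed between groups. The log2 fold change was 0.35 ± 0.27 (SE) with an adjusted p of 0.754 in edgeR, and 0.037 ± 0.062 without that library. For 21 of the 32 genes overexpression replicate 3 had the lowest level of all 6, and Hmgcs1 was the 1 gene of the set for which it was the highest.

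The genes next to Hmgcs1 on chromosome 13 shared this pattern, and were looked at after its values had been seen. In the order of RefSeq's annotation, Hmgcs1 is followed by Nim1k, a protein kinase gene, by the predicted gene Gm41077, and by Zfp131, a zinc finger gene, which is the last tested gene in that order on the chromosome. Nim1k stood at 49.3 CPM in overexpression replicate 3, with the remaining 5 libraries between 24.5 and 27.05 CPM. Zfp131 stood at 86.7 CPM, with the remaining 5 between 39.8 and 41.6 CPM. Overexpression replicate 3 was thus at 1.77 times the mean of the other 5 libraries for Hmgcs1, 1.89 times for Nim1k, 2.12 times for Zfp131 and 2.58 times for the weakly expressed Gm41077. On the other side, Tmem267 was at 1.49 times, Ccl28 at 1.11 times and Paip1 at 1.06 times. Of 10211 tested genes with a mean of at least 10 CPM, 5 were at least 1.5 times as high in overexpression replicate 3 as in the highest of the other libraries: Zfp131, Nim1k, Hmgcs1, Zfp367 and Inhba, all of them on chromosome 13. The same count was 7 in overexpression replicate 1 and 1 in replicate 2, and 3, 3 and 0 in control replicates 1, 2 and 3, so the number in replicate 3 was within the range of the other libraries. Zfp367 and Inhba are not among the genes listed beside Hmgcs1. The share of the 10211 genes that lie on chromosome 13 was not counted. Nor were the chromosomes of the genes found in the other libraries looked up. The cause of the pattern in overexpression replicate 3 was not tested.

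**Figure D2:**
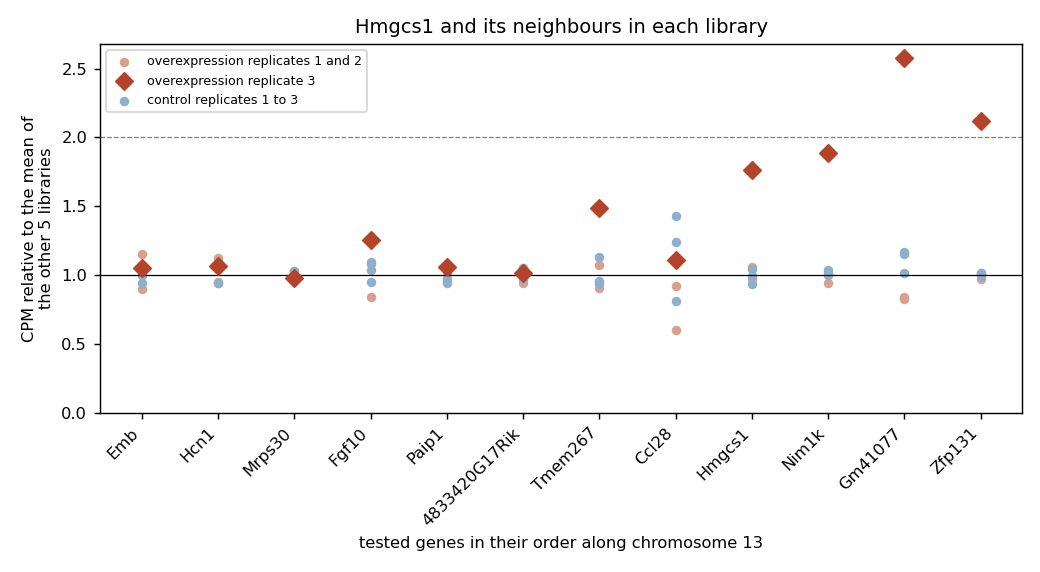
Level of Hmgcs1 and of tested genes beside it in each library, relative to the mean of the 5 libraries other than overexpression replicate 3, on a linear axis and in gene order along chromosome 13 (genes below 1 CPM in any of those 5 libraries left out). Overexpression replicate 3 (diamonds) is at 1.77 to 2.58 times from Hmgcs1 to Zfp131, and within 0.976 to 1.26 times from Emb to 4833420G17Rik.

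The promoters of Hmgcs1 and of the 3 genes whose groups did not overlap are shown for comparison, Hmgcs1 because its fold change was the largest of the 32. Each is the 250 bases before the most upstream start in RefSeq, build GRCm38.p6, written from 5′ to 3′ on the strand of the gene, and capitals mark the motifs found. They are at chr13:119690101-119690350 (plus strand) for Hmgcs1, chr7:143822917-143823166 (plus strand) for Dhcr7, chr8:122443423-122443672 (minus strand) for Mvd and chr5:4104698-4104947 (minus strand) for Cyp51.
Hmgcs1: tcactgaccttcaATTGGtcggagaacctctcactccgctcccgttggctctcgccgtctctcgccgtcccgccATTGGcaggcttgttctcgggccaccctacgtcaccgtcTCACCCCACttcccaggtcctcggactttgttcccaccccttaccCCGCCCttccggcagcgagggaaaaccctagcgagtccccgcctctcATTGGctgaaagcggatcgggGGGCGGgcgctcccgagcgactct
Dhcr7: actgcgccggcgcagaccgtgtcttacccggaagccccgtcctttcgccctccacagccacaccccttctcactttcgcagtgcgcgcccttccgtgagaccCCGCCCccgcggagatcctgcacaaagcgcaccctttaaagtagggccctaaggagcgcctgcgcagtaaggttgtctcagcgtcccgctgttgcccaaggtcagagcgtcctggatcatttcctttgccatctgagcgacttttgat
Mvd: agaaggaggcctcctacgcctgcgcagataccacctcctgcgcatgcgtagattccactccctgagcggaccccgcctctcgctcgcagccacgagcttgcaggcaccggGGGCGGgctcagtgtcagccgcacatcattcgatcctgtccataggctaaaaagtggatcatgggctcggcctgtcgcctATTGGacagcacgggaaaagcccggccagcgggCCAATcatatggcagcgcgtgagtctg
Cyp51: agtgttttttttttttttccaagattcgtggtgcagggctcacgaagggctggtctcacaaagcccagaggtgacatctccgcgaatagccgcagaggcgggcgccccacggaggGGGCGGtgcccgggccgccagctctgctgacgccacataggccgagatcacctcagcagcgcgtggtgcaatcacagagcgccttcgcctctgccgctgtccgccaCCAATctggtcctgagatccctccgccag
The motifs searched, on both strands, were TCACNCCAC, a sterol regulatory element bound by SREBP, CCAAT, the box bound by NF-Y, GGGCGG, the GC box bound by Sp1, and CACGTG, the E-box; no matches overlapped in the 4 promoters shown. Hmgcs1 held the sterol regulatory element from 137 to 129 bases before its start, with CCAAT boxes and GC boxes around it. Mvd held CCAAT boxes and a GC box, Cyp51 held 1 of each, and Dhcr7 held a GC box. Promoters were found for 26 of the 32 genes. The sterol element was in 1 of these 26, and in 1.03% of the 27025 promoters of the table. CCAAT was in 19 of 26 (73.1%), beside 34.5% of all, GGGCGG in 18 of 26 (69.2%), beside 33% of all, and CACGTG in 3 of 26 (11.5%), beside 6.04% of all. The 27025 promoters were not limited to genes tested here, while all 26 genes of the set were tested. A match is a description of the letters in this window only.

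From squalene to cholesterol, 9 of 11 enzymes were below 0, the median was -0.055, and 0 passed the threshold. Dhcr7, the reductase that carries out a last step of cholesterol synthesis, had the smallest p of the set. It was at 29.8, 28.7 and 24.3 CPM in the overexpression libraries and at 31.8, 32.7 and 31.7 CPM in the control libraries. All 3 overexpression libraries lay below the controls, which were close together, with replicate 3 the farthest. The log2 fold change of Dhcr7 was -0.22 ± 0.078 (SE), a fold of 0.86 with a 95% interval of 0.765 to 0.966, and the edgeR adjusted p was 0.429 (unadjusted p = 0.0149). Without overexpression replicate 3 it was -0.13, with an edgeR adjusted p of 0.789 (unadjusted p = 0.0804). Without overexpression replicate 1 it was -0.28, with an edgeR adjusted p of 0.179 (unadjusted p = 0.00442).

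Cyp51, the demethylase that first trims lanosterol, was at 60.4, 62.4 and 57.0 CPM in overexpression and at 62.6, 65.9 and 67.4 CPM in control libraries. The groups did not overlap, and overexpression replicate 2 lay next to control replicate 1. Its log2 fold change was -0.12 ± 0.059 (SE), with an edgeR adjusted p of 0.549. Tm7sf2, a sterol C14 reductase that acts on the product of Cyp51, pointed the other way, at 16.0, 16.1 and 14.4 CPM against 13.2, 12.6 and 14.7 CPM. Overexpression replicate 3 lay below control replicate 3 for Tm7sf2, and the log2 fold change was 0.19 ± 0.093 (SE; adjusted p = 0.553). Msmo1, the C4 oxidase, was the other enzyme above 0, at 68.0 ± 4.74 against 66.0 ± 3.36 CPM (SD, n = 3 per group).

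Fdft1, the squalene synthase, was at 70.5, 64.6 and 55.3 CPM in overexpression and at 65.2, 69.0 and 77.4 CPM in control libraries. Overexpression replicate 1 lay inside the control range, replicate 2 just below it and replicate 3 farther below (log2 fold change -0.15 ± 0.090, adjusted p = 0.643). The remaining 6 enzymes are Sqle, the epoxidase of squalene, Lss, which closes the ring, Nsdhl and Hsd17b7 of the C4 demethylation, Ebp, the isomerase, and Sc5d, the desaturase. Their log2 fold changes ran from -0.14 for Ebp to -0.022 for Hsd17b7, with edgeR adjusted p-values from 0.729 to 0.973. Sc5d was the most even of the 11 across libraries, at 89.5 ± 1.67 against 91.1 ± 1.42 CPM (SD, n = 3 per group).

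**Figure D3:**
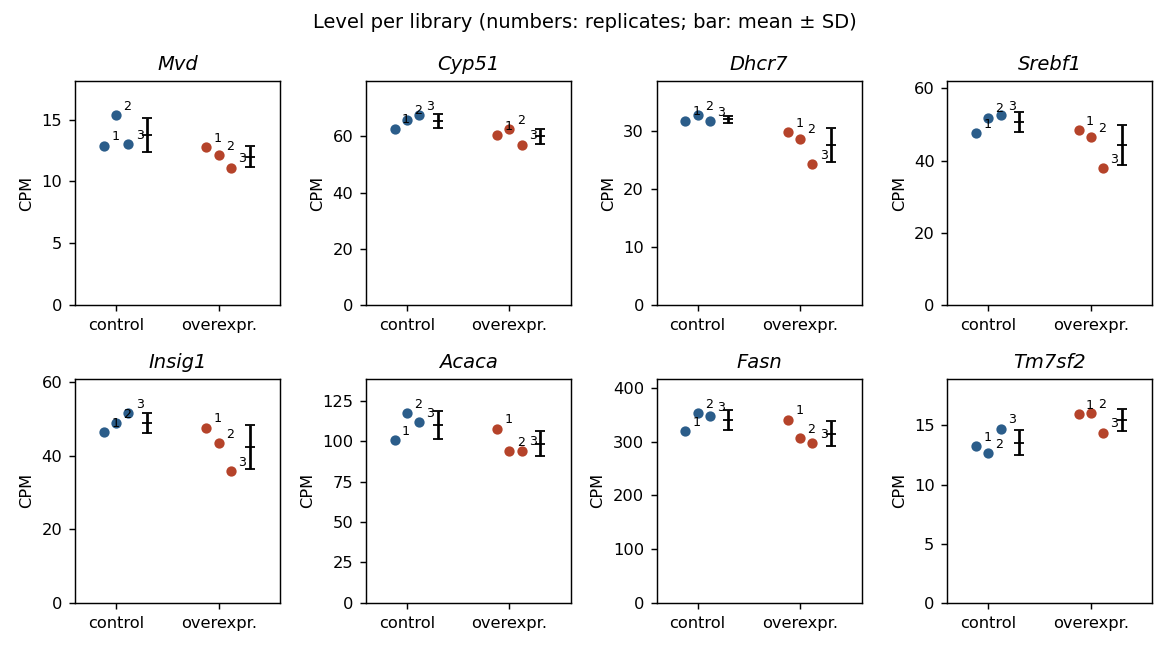
Level in CPM of 8 of the genes in each library, control in blue and overexpression in red, numbered by replicate, with the mean and SD of 3 libraries beside each group. The groups are apart for Mvd, Cyp51 and Dhcr7 and overlap for the other 5, and overexpression replicate 3 is the lowest library in 6 of the 8 panels and close to the lowest for Acaca.

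Of the 7 regulators and sterol sensors, 6 were below 0, the median was -0.086 and 0 passed the threshold. Srebf1, whose product drives fatty acid genes most strongly, was at 48.4, 46.5 and 38.0 CPM in overexpression and at 47.7, 51.9 and 52.6 CPM in control libraries. Insig1, which retains SREBP and is itself an SREBP target, was at 47.6, 43.4 and 35.8 CPM against 46.3, 48.9 and 51.6 CPM. In both genes overexpression replicate 1 lay above control replicate 1, and replicate 3 was the lowest of all 6 libraries. The log2 fold changes were -0.20 ± 0.084 (SE) for Srebf1 and -0.21 ± 0.092 (SE) for Insig1, with edgeR adjusted p-values of 0.503 and 0.516. Without overexpression replicate 3 they were -0.094 and -0.10, and without replicate 1 they were -0.27 and -0.31.

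Srebf2, whose product drives cholesterol genes, was at 230.4, 218 and 196 CPM in overexpression and at 222, 226 and 235 CPM in control libraries. Its groups overlapped, with a log2 fold change of -0.086 ± 0.061 (SE; adjusted p = 0.704). It was -0.030 after correction for GC content, -0.021 without overexpression replicate 3 and -0.14 without replicate 1. Insig2, the second INSIG gene, which is not known as a strong SREBP target, was at 46.2, 48.5 and 48.4 CPM against 48.0, 47.7 and 46.3 CPM. Its groups covered each other, with a fold of 1.01 and a 95% interval of 0.927 to 1.10. Scap, the escort of SREBP, had a log2 fold change of -0.11 ± 0.060 (SE), Stard4, a sterol carrier of the cytosol, -0.049 ± 0.101 (SE), and Nr1h2, which encodes the oxysterol receptor LXR beta, -0.052 ± 0.076 (SE). Their edgeR adjusted p-values were 0.597, 0.92 and 0.879.

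All 6 genes of fatty acid synthesis were below 0, with a median of -0.070 and 0 past the threshold. Acaca, the acetyl-CoA carboxylase that commits carbon to fatty acids, was at 107.5, 93.8 and 94.0 CPM in overexpression and at 100.4, 117 and 112 CPM in control libraries. Overexpression replicate 1 lay between the controls, and the log2 fold change was -0.16 ± 0.071 (SE; adjusted p = 0.521). Fasn, the synthase that builds palmitate, was at 341, 307 and 298 CPM against 319, 354 and 348 CPM. Its groups overlapped in the same way, with a log2 fold change of -0.11 ± 0.061 (SE; adjusted p = 0.616). It was -0.054 after correction for GC content, -0.068 without overexpression replicate 3 and -0.17 without replicate 1. Acly, which makes cytosolic acetyl-CoA from citrate, and Elovl6, which lengthens palmitate, had log2 fold changes of -0.059 and -0.0089.

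Scd1 and Scd2 encode desaturases that put the double bond into oleate, and Scd2 is the main form of the brain. Scd2 was at 1647, 1572 and 1520.3 CPM in overexpression and at 1480.3, 1630.0 and 1680.5 CPM in control libraries. The groups covered each other, with a fold of 0.989 and a 95% interval of 0.909 to 1.08. Scd1 was at 231, 183 and 185 CPM against 202, 206 and 226 CPM, where overexpression replicate 1 was the highest library of all. Its log2 fold change was -0.080 ± 0.089 (SE; adjusted p = 0.828). Leaving out overexpression replicate 1 gave -0.20, replicate 2 -0.021, replicate 3 -0.026 and control replicate 3 -0.030. Reads that match both of the related Scd genes could have been split between them, as could those of Acat2 and its close copy. The treatment of such reads was not stated in the labels.

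Cyp46a1, the cholesterol 24-hydroxylase of neurons, was at 114.5, 109.5 and 106 CPM in overexpression and at 122.5, 109.8 and 122.6 CPM in control libraries. Control replicate 2 lay among the overexpression libraries, and the log2 fold change was -0.10 ± 0.060 (SE; adjusted p = 0.628). It was -0.045 after correction for GC content and -0.16 without control replicate 2.

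Set per length, the levels of the genes spanned a wide range. The length was the union of all annotated exons of a gene, which can exceed its main transcript. The order therefore depends on the annotation as well as on the level. The length was 10787 bases for Lss and 1859 bases for Mvd, for example. In CPM per kilobase of exon, averaged over the 6 libraries, Scd2 was the highest at 291, followed by Hmgcs1 at 53.3, Scd1 at 42.0 and Cyp46a1 at 34.7. Hmgcs1 ran from 44.2 to 83.5, the latter in overexpression replicate 3, and overlapped Scd1, at 37.4 to 47.3. Cyp46a1, at 32.3 to 37.3, overlapped Srebf2, at 27.2 to 32.7. Within each of the 6 libraries, however, Hmgcs1 was above Scd1 and Cyp46a1 was above Srebf2. Hmgcs1 and Scd1 were close in control replicate 3, at 46.8 and 46.1. The lowest library of Scd2, at 271, was above every library of each other gene. Srebf2, Acly and Fasn stood next to each other at 30.8, 30.2 and 29.9, with ranges over libraries that overlapped, so their order cannot be told. Srebf1 was at 8.43 on this scale. At the low end were Stard4 at 4.23, Hsd17b7 at 4.22, Lss at 3.74 and Tm7sf2 at 3.29 CPM per kilobase, with ranges that overlapped between neighbours.

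The genes differed between libraries of the same group as well as between groups. As a median over the 32 genes, the log2 deviation from the mean of the 6 libraries was 0.061 for overexpression replicate 1, -0.053 for replicate 2 and -0.14 for replicate 3. For control replicates 1, 2 and 3 it was -0.0090, 0.056 and 0.079. Overexpression replicate 1 was thus above control replicates 1 and 2, and replicate 3 was the lowest of the 6. Each of the 4 larger role groups had its lowest median deviation in overexpression replicate 3: -0.18 for the mevalonate steps, -0.14 for the sterol steps, -0.16 for the regulators and -0.13 for fatty acid synthesis. The libraries in which most genes were highest were control replicates 2 and 3, with 12 and 10 of the 32. The coefficient of variation was larger in the overexpression group for 24 of the 32 genes, with a median of 8.1% against 5.42% in the control group.

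**Figure D4:**
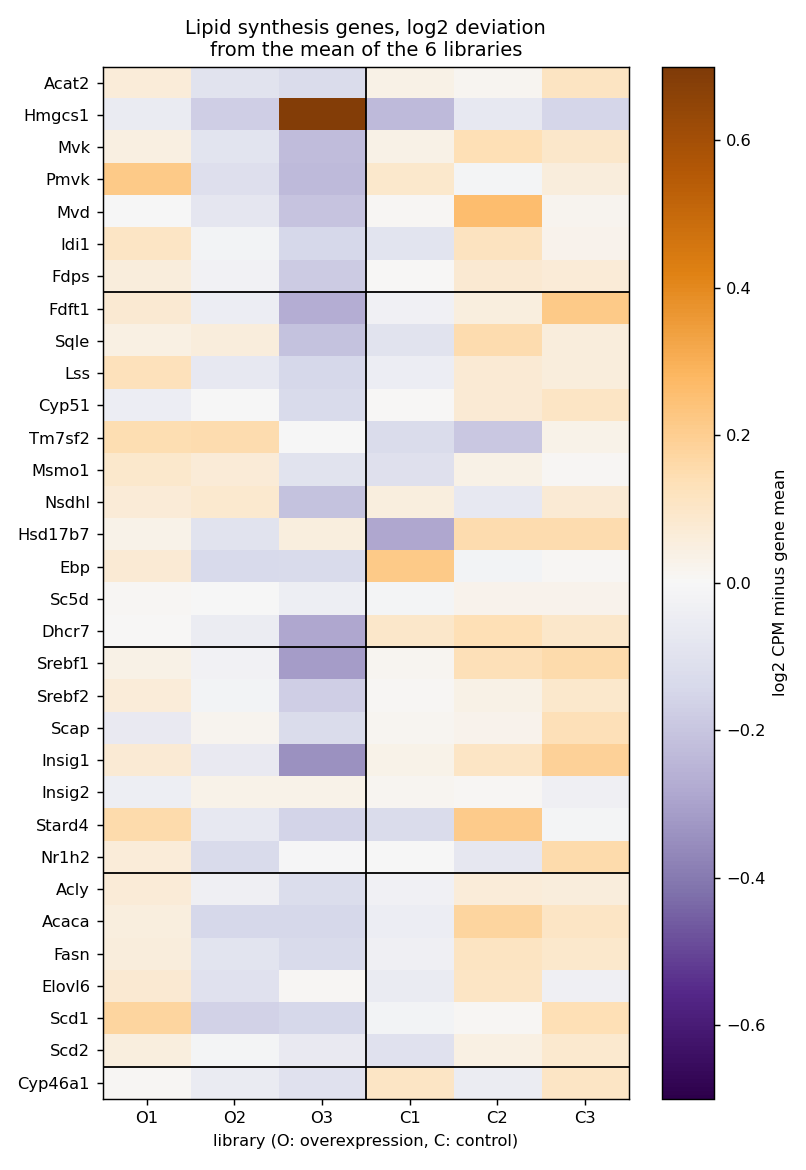
Log2 CPM of each of the 32 genes in each library minus the mean of that gene over the 6 libraries, in orange where higher and purple where lower, with lines between the role groups. The column of overexpression replicate 3 (O3) holds the lowest value for 21 of the 32 genes, and the highest for Hmgcs1 alone.

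Genes of neighbouring steps gave no call either. Of 61 further lipid genes, 60 were matched and tested, and 0 passed in edgeR, where 0.0465% of all tested genes did; 8 of the 60 (13.3%) had an unadjusted p under 0.05, beside 9.24% of all tested genes, and DESeq2 and limma-voom called 0. The groups did not overlap for 14 of the 60 (23.3%), 10 lower and 4 higher, beside 15.1% of all tested genes. They were spread on both sides of 0, with 25 above, 35 below and a median of -0.022. The smallest p belonged to Nus1, a subunit of the enzyme that makes dolichol from farnesyl diphosphate. Nus1 was at 110.1, 112 and 119.5 CPM in overexpression and at 96.7, 95.3 and 99.8 CPM in control libraries, so that every overexpression library was above every control. The log2 fold change of Nus1 was 0.23 ± 0.055 (SE), with an edgeR adjusted p of 0.226, and 0.0309 when genes of low count were not filtered out; over all alternatives it ran from 0.0309 to 0.612. Ggps1, which makes geranylgeranyl diphosphate from the same precursor, was at 65.9 ± 3.32 against 60.0 ± 2.82 CPM (SD, n = 3 per group; edgeR adjusted p = 0.521). In this isoprenoid branch 4 of 8 genes were above 0 and 4 below.

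Among 25 genes that supply, lengthen and desaturate fatty acids, 12 were above 0 and 13 below. The ones with the smallest p were Mid1ip1, which promotes the polymer form of acetyl-CoA carboxylase, at 45.4 ± 2.09 against 51.7 ± 3.08 CPM, and Slc25a1, the citrate carrier of mitochondria, at 20.5 ± 1.88 against 23.8 ± 0.789 CPM (SD, n = 3 per group). Their edgeR adjusted p-values were 0.416 and 0.455. Of 6 accessory sterol enzymes 5 were below 0, with Cyb5r3, which feeds electrons to desaturases, at 48.1 ± 3.13 against 55.7 ± 1.75 CPM (adjusted p = 0.352) and Por, which feeds them to Cyp51, at 69.1 ± 1.54 against 73.1 ± 2.37 CPM (adjusted p = 0.694). Of 14 genes of sterol export, storage and oxidation 6 were above 0 and 8 below, with Soat1, which esterifies cholesterol for storage, at 56.9 ± 2.57 against 51.7 ± 0.703 CPM and Lcat, which esterifies it on lipoproteins, at 17.7 ± 1.09 against 19.5 ± 0.676 CPM. Their adjusted p-values were 0.488 and 0.616. Of 7 proteases and INSIG partners of the SREBP pathway 5 were below 0, with Mbtps1, the site-1 protease of SREBP, at 93.1 ± 4.41 against 98.6 ± 1.14 CPM (adjusted p = 0.679) and Rnf145, a sterol-regulated ubiquitin ligase, at 92.9 ± 2.07 against 96.7 ± 2.29 CPM (adjusted p = 0.780).

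Markers of cell types that make sterol differed between libraries too. All 12 oligodendrocyte markers were below 0, with a median of -0.35, and their summed level was 3194 to 3777 CPM in overexpression and 3981 to 5030 CPM in control libraries. Gene by gene, the groups did not overlap for 5 of the 12 (41.7%), all lower. Over all tested genes this share was 15.1%, with 8.07% lower. An unadjusted edgeR p under 0.05 was found for 8 of the 12 (66.7%), beside 9.24% of all tested genes. The median log2 deviation of the 12 overlapped between groups, at -0.095 in overexpression replicate 1 and -0.098 in control replicate 1. The sums were 3777, 3194 and 3604 CPM in overexpression replicates 1, 2 and 3, and 3981, 5030 and 4841 CPM in control replicates 1, 2 and 3. In the same order, the median log2 deviation of the 32 lipid genes was 0.061, -0.053 and -0.14 in overexpression and -0.0090, 0.056 and 0.079 in control libraries. Fewer cells of a type and less RNA per cell cannot be told apart in this tissue RNA, and the part of the oligodendrocyte markers in the lipid values was not tested. The 9 astrocyte markers had a median of -0.021, with sums of 6030 to 6606 against 6015 to 6668 CPM, most of it from Slc1a2. Of these 9, 3 were above 0 and 6 below. Only 1 of the 9 (11.1%) had an unadjusted edgeR p under 0.05, beside 9.24% of all tested genes. Gfap, the astrocyte filament gene, had the smallest p of the 73 markers, at 338, 328 and 401 CPM in overexpression and 465, 525 and 533 CPM in control libraries. Its groups did not overlap, with a log2 fold change of -0.51 ± 0.080 (SE) and an edgeR adjusted p of 0.0862. The part of Gfap in the lipid values was not tested.

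For the other lists, medians were -0.0083 for oligodendrocyte precursors, -0.078 and -0.043 for excitatory and inhibitory neurons, -0.0058 for microglia, 0.085 for endothelium and -0.29 for ependyma. The 7 choroid plexus markers were all above 0, at a sum of 730.5 CPM in overexpression replicate 1 and 23.9 to 68.3 CPM in the other 5 libraries. The 6 meningeal fibroblast markers were also all above 0, with a median of 0.64 and sums of 96.8 to 124 against 69.4 to 111 CPM. An unadjusted edgeR p under 0.05 was found for 4 of these 6 (66.7%), beside 9.24% of all tested genes. Gene by gene, the groups did not overlap for 3 of the 6 (50%), all higher. Over all tested genes this share was 15.1%, with 7.07% higher. None of the 73 markers was at 0 in any library, and 0 passed the threshold. The part of these tissues in the lipid values was not tested.

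**Figure D5:**
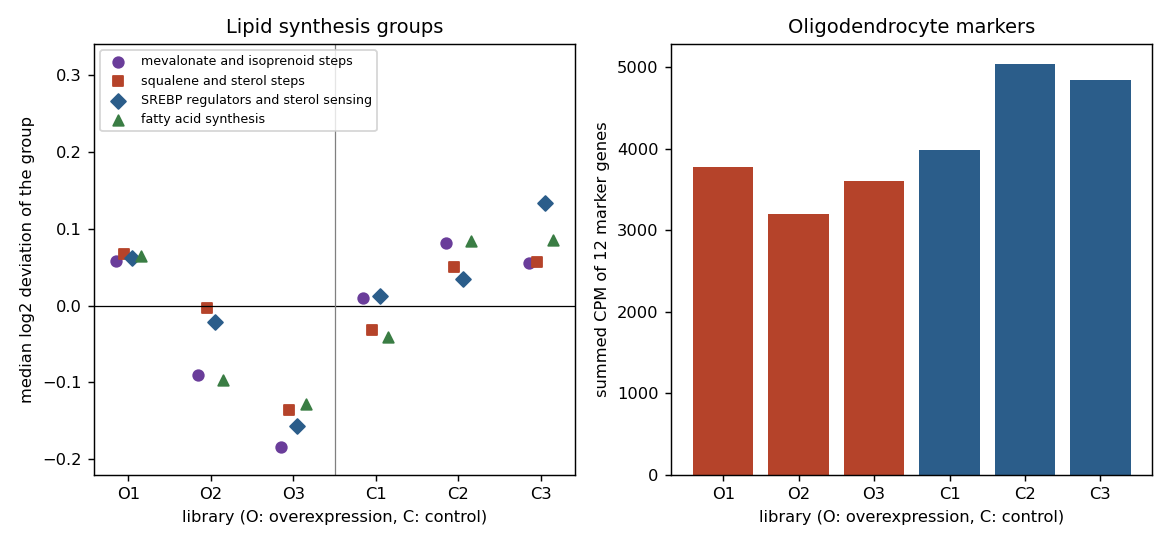
Left, median log2 deviation of each role group except cholesterol turnover (Cyp46a1) in each library (O overexpression, C control). Right, summed CPM of the 12 oligodendrocyte markers in each library. The median deviations of the lipid groups overlap between conditions, and the marker sums are 3194 to 3777 CPM in overexpression and 3981 to 5030 CPM in control libraries; the panels show different measures.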

How the data were processed

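Total RNA was extracted with Trizol and poly(A) RNA was made into dUTP strand-marked libraries, per the labels' protocols. The authors deposited raw counts per Ensembl gene in 1 table; 0 per-sample columns were left unused. The submitters' processing notes name, with no role or order, STAR 2.7.10, featureCounts 2.0.3 and Trimmomatic 0.36, and the builds GRCm39 and mm10. The strand setting and annotation were not given in the sources used here. A symbol was found for 51948 of 56941 identifiers; those without held 0.264 to 0.348% of a library.

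The mice are separate animals per the series' design text. edgeR 4.0.16 (R 4.3.3; TMM, default filter, robust quasi-likelihood, group only) was fitted to 19354 genes, with Benjamini-Hochberg adjustment over all of them and a threshold of 0.05. The SE came from the F statistic. No library pair agreed within sampling noise (chi-square per degree of freedom 4.28 to 12.9). Exon length and GC came from GENCODE, promoters and gene order from RefSeq. Alternatives were other scaling, DESeq2 1.42.0, limma-voom (limma 3.58.1), filters, replicate block, GC correction and leaving out each library. The scripts were tested on simulated data. The rule for named genes gave values per library to genes with an unadjusted p under 0.05, genes without overlap, the 2 of smallest p per role, and 8 chosen by name; Hmgcs1, its neighbours, Tm7sf2 and Fdft1 were named after their values were seen. The members and lists were chosen with earlier results of these data known.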

Additional observations from a re-analysis of the deposited data

How the results depend on the processing

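None of the 32 lipid synthesis genes passed the threshold under any of the 15 alternatives run. Their median log2 fold change kept its sign in all 15, from -0.14 to -0.029, both ends among the fits that leave out 1 library, which also gave 21 to 28 genes below 0. With the replicate number as a block the median was -0.086, 0 members were called, and 26 genes were called over the whole table in place of 9. Same-numbered libraries of the groups did not deviate together (correlations of 0.022, -0.028 and -0.056), so the numbers were not treated as pairs, and the block changed no other call. The count over all genes was 108 with DESeq2, 304 without a filter on low counts, 5 with at least 1 CPM in 3 libraries, 31 with the block and GC correction together, and 2 to 63 when single libraries were left out: 63 without overexpression replicate 1 and 5 without replicate 2, and 39, 2 and 3 without control replicates 1, 2 and 3 respectively. Without the filter, 1 other lipid gene passed, Nus1. Insig2 was at -0.011 after GC correction, alone or with the block, and at -0.0043 to 0.033 with single libraries left out; Scd2 was at -0.065 to 0.022 there. Both lay near 0. With 3 libraries per group, the 95% intervals of the 31 genes other than Hmgcs1 lay within folds of 0.749 to 1.31. The cause of these dependences was not tested.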
